A study of Rattus norvegicus with 6 samples.

Results

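The glial cell line-derived neurotrophic factor (GDNF) family was followed in rat sciatic nerve through the mRNA of 7 genes: the ligand genes Gdnf, Artn (artemin) and Nrtn (neurturin), the co-receptor genes Gfra1, Gfra2 and Gfra3, and Ret, the gene of the shared signalling receptor. The members were taken by gene symbol from the mRNA table, where each of the 7 matched 1 of 30957 genes. All 7 passed the low-count filter, which kept 15195 genes for testing.

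The ligands are secreted proteins. A ligand binds a GFRα co-receptor that is anchored to the outer cell membrane, and the pair then engages the receptor tyrosine kinase RET, with GDNF preferring the product of Gfra1, neurturin that of Gfra2 and artemin that of Gfra3. In peripheral nerve the ligands are known as survival and growth factors of motor and sensory neurons, whose cell bodies lie outside the nerve, and denervated Schwann cells are a known source of GDNF.

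Sprague-Dawley rats aged 1 month had the left sciatic nerve crushed with hemostatic forceps, and nerve tissue was collected 4 days (D4) or 7 days (D7) later. The control nerves are labelled as normal, and the study's methods describe a sham operation without the clamp. Each group held 2 rats with 1 library each, called a and b, so every p-value rests on 2 rats per group. The piece of nerve taken relative to the clamped site, and the sex of the rats, are not given in the sources used here.

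Fragments counted on mRNAs numbered 18727255 to 25350886 per library. A gene was called upregulated or downregulated when its fold change was at least 2 and its adjusted p-value was under 0.05 in the quasi-likelihood test of edgeR, adjusted by Benjamini-Hochberg over all genes tested. Levels of different genes were compared as the deposited FPKM (fragments counted on a gene, divided by its transcript length and by the library's total), while fold changes were computed from the counts. In whole nerve, a change in the number of cells of a type and a change in the RNA per cell cannot be told apart. The tissue label was checked against marker genes: 6 Schwann cell markers summed to between 10809 and 16581 CPM (counts scaled to library size) in the control libraries, and Rbfox3, which marks neuronal nuclei, held at most 1 count in each library. Summed marker levels differed between the groups. The Schwann cell sum was 5443 and 5758 CPM on D4 and 6823 and 5412 CPM on D7. Most of the control sum was Mbp, a myelin gene, with 13194 and 8008 CPM in control. It held 775 and 741 CPM on D4 and 1993 and 1262 CPM on D7. The fall of the sum thus followed Mbp and was not shared by all 6 markers. Of these 6 markers, Erbb3 and Ngfr were upregulated and Mbp was downregulated on both days. The 6 macrophage markers summed to 154 and 180 CPM in control, 597 and 609 CPM on D4 and 391 and 492 CPM on D7. All 6 macrophage markers were upregulated on D4 and 5 of them on D7. Of 4 perineurial markers, 2 were downregulated on D4 and 3 on D7, and their sum went from 2266 and 2811 CPM to between 948 and 1526 CPM after injury. Of 3 endothelial markers tested, 2 were downregulated on D4 and 3 on D7, with sums of 447 and 509 CPM in control and 164 to 281 CPM after injury. Fibroblast markers summed to 28002 and 29414 CPM in control and 13919 to 19524 CPM after injury, with 1 of 4 tested downregulated on D7. That marker was Col1a1, which made up most of the sum, with 24900 and 26451 CPM in control. The fall was not shared by all 4. On D4 the log2 fold change was −0.66 for Col1a1, −0.56 for Dcn, −0.05 for Lum and 0.68 for Pdgfra, and none of these was called. Adipocyte markers summed to 1315 and 1080.2 CPM in control, 309 and 153 CPM at D4, and 7.09 and 438 CPM at D7 (libraries a and b), and muscle markers to 4.27 and 42.3 CPM, 85.5 and 6.83 CPM, and 8.03 and 22.3 CPM, so these sums differed widely within groups. The part of these shifts in the results below was not tested.

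In the control vs D4 comparison 4 of the 7 members were called: Gdnf, Artn and Gfra1 were upregulated and Ret was downregulated. Of all genes tested, 21.9% were called on D4, 11.2% upward and 10.7% downward. In the control vs D7 comparison 5 of the 7 were called, the same 4 genes with the same directions and Gfra3 upward, against 18.8% of all genes tested (9.83% upward and 9.02% downward). Between D7 and D4, Gdnf was lower and Gfra3 was higher on D7, so 2 of the 7 were called against 2.18% of all genes tested (1.68% higher and 0.494% lower on D7). The control libraries are shared by the D4 and D7 comparisons, so these are not independent of each other.

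**Figure D1:**
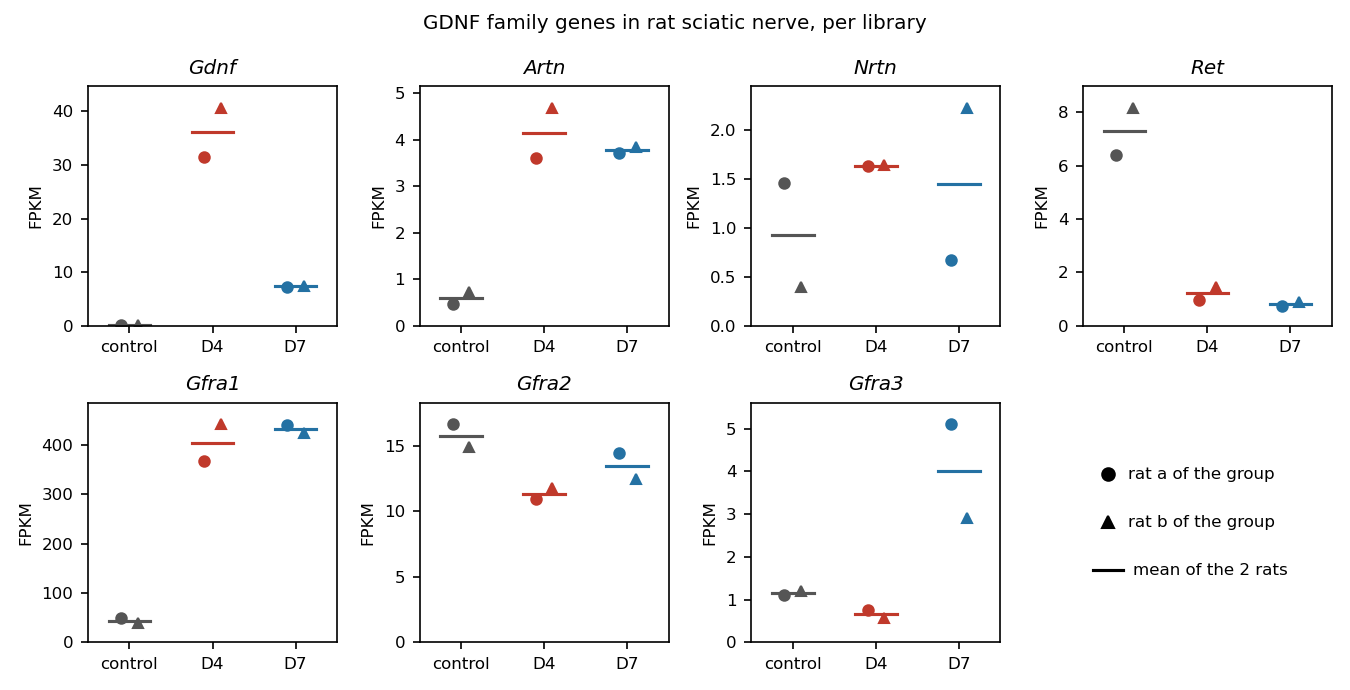
FPKM of each of the 7 genes in each library (points) with the group mean (line), in control, D4 and D7, with a separate linear axis from 0 for each gene. Gdnf is near 0 in control and highest on D4, Gfra1 is high on both days, Ret is high in control, and the 2 Nrtn libraries of the control and D7 groups lie far apart.

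Promoter sequences of the members that were called on both days are shown to place the transcripts on the genome. They are the 250 bases before the RefSeq transcription start on build GRCr8, read 5′ to 3′ on the gene's strand, with each E-box (CANNTG on either strand) in capitals. The intervals are chr2:58621077-58621326 on the plus strand for Gdnf, chr5:136753458-136753707 on the minus strand for Artn, chr1:267555812-267556061 on the minus strand for Gfra1 and chr4:153040557-153040806 on the minus strand for Ret.
Gdnf: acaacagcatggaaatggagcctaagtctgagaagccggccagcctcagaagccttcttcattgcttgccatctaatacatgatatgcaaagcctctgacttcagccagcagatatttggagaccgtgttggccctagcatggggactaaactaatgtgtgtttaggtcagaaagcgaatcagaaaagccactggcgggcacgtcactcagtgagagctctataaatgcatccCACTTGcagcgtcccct
Artn: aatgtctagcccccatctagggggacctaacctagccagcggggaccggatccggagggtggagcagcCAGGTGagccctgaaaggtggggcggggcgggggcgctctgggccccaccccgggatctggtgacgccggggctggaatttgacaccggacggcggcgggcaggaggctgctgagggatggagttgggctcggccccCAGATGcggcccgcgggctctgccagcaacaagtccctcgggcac
Gfra1: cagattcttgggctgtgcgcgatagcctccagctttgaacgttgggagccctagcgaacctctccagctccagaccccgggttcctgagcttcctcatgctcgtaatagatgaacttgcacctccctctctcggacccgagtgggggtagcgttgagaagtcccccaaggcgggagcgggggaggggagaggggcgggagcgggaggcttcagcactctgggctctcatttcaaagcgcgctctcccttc
Ret: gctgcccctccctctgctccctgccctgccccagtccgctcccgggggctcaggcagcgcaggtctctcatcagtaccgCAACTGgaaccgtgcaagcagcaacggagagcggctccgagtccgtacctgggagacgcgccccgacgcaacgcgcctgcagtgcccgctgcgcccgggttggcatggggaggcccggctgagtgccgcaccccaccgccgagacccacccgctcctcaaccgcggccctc

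RefSeq held a promoter for 6 of the 7 members, the exception being Gfra2. The 3 upregulated genes and the downregulated Ret did not separate by these features. An E-box began 17 bases before the start of Gdnf, 182 and 45 bases before that of Artn, 171 bases before that of Ret and 247 bases before that of Gfra3, and no E-box was found in the Gfra1 or Nrtn window. Among 33465 rat promoters of the same length, 65.5% held an E-box. The AP-1 motif TGANTCA, the type of site bound by Jun, was found on neither strand in the 6 windows and in 6.34% of all promoters. GC content was 72.8% for Ret, 70.8% for Artn, 66.0% for Gfra3, 62.0% for Gfra1, 56.4% for Nrtn and 49.6% for Gdnf, beside a median of 51.2% over all promoters. These matches are letters in a window and not measured binding sites. Gene positions given below are those of the deposited files, on build Rnor_6.0, and differ from the GRCr8 positions above.

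Gdnf (ENSRNOG00000012819, chromosome 2, 56887987 to 56910238) encodes the founding ligand of the family and was almost undetected in the control nerves. Control library a held 3 counts and control library b 2, the D4 libraries held 504 and 722, and the D7 libraries held 103 and 98. No group overlapped another: D4 was highest, D7 lay between, and control was near 0. The ratio of D4 to control, scaled to library size, was 172, with a 95% interval of 73.3 to 529.5, and that of D7 to control was 34.9, with an interval of 14.7 to 109. These intervals cover counting error only, since the control group held 5 fragments in all. The fitted log2 fold change was 7.36 (SE 0.29, adjusted p = 0.000119) on D4 and 5.07 (SE 0.31, adjusted p = 0.000356) on D7. Compared directly, Gdnf was 4.89-fold lower on D7 than on D4 (log2 fold change −2.29, 95% interval −2.75 to −1.83, adjusted p = 0.0117). That last call was lost without D4 library a (−2.46, adjusted p = 0.138) or D4 library b (−2.09, adjusted p = 0.112).

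On the FPKM scale Gdnf was 0.171 ± 0.0270 (SD, n = 2) in control, 36.1 ± 6.50 on D4 and 7.41 ± 0.0885 on D7. Ranked by FPKM among 30957 genes, it stood at 15597 and 15985 in control, 2480 and 1819 on D4, and 8527 and 8669 on D7. Its rank was thus best on D4, and the D7 libraries stood between D4 and control.

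Artn (ENSRNOG00000019842, chromosome 5, 136759717 to 136762986) encodes artemin, the ligand of the Gfra3 product. It held 14 and 18 counts in control, 110 and 158 on D4, and 99 and 96 on D7. Both injured groups lay above control, with FPKM of 0.594 ± 0.179 (SD, n = 2) in control, 4.15 ± 0.755 on D4 and 3.78 ± 0.0960 on D7. The log2 fold change was 2.52 (SE 0.31, adjusted p = 0.00149) on D4 and 2.38 (SE 0.31, adjusted p = 0.00257) on D7. D7 and D4 did not differ by the test (log2 fold change −0.14, adjusted p = 0.792), and the 95% interval of −0.79 to 0.51 leaves room for a change of up to that size in either direction. Artn thus held its D4 level more closely than Gdnf did, on the values of each gene's own comparison, and the difference between the 2 genes was not tested.

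Nrtn (ENSRNOG00000048651, chromosome 9, 10305470 to 10306597) encodes neurturin, the preferred ligand of the Gfra2 product. It held 22 and 5 counts in control, 25 and 28 on D4, and 9 and 28 on D7. Its 2 libraries lay far apart in control and on D7, and these groups overlapped. The log2 fold change was 0.49 (95% interval −1.36 to 2.34, adjusted p = 0.627) on D4 and 0.30 (−1.59 to 2.19, adjusted p = 0.784) on D7. Both intervals include a change of 2-fold in either direction. Without control library a the log2 fold change was 1.75 (adjusted p = 0.205) on D4 and 1.56 (adjusted p = 0.271) on D7.

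The ligands changed places in each library's ranking. The ratio of Gdnf to Artn in FPKM stood at 0.408 and 0.211 for control, at 8.71 and 8.69 for D4 and at 1.98 and 1.94 for D7. The ratio of Gdnf to Nrtn was 0.131 and 0.383 in control, 19.3 and 24.7 on D4, and 10.97 and 3.36 on D7. Gdnf was thus the least abundant ligand per length in both control libraries and the most abundant in the 4 injured libraries. An exact permutation test of 2 against 2 libraries cannot give a two-sided p below 0.333, so no p is given for these ratios.

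Gfra1 (ENSRNOG00000017438, chromosome 1, 279207586 to 279277339) encodes the co-receptor of GDNF and was the most abundant member in all 6 libraries. It held 3292 and 2184 counts in control, 25008 and 33394 on D4, and 26261 and 23720 on D7. Both control libraries lay far below the injured ones, and D4 and D7 overlapped. Its FPKM was 44.1 ± 7.09 (SD, n = 2) in control, 405 ± 53.0 on D4 and 433 ± 10.7 on D7. Gfra1 was upregulated 7.50-fold on D4 (log2 fold change 2.91, SE 0.17, adjusted p = 0.000169) and 7.99-fold on D7 (3.00, SE 0.17, adjusted p = 0.000332). The difference between the days was 0.09 on the log2 scale, with a 95% interval of −0.29 to 0.47 (adjusted p = 0.772). By FPKM it ranked 1162 and 1574 of 30957 genes in control, 99 and 80 on D4, and 66 and 67 on D7.

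Gfra2 (ENSRNOG00000014010, chromosome 15, 52557607 to 52648972), the co-receptor gene of neurturin, moved little. It held 1046 and 782 counts in control, 699 and 834 on D4, and 808 and 654 on D7. In FPKM, which takes library size into account, control was 16.7 and 14.9, D4 was 10.95 and 11.8, and D7 was 14.5 and 12.5, so both injured groups lay below control. The log2 fold change was −0.76 (SE 0.12, adjusted p = 0.00439) on D4 and −0.52 (SE 0.12, adjusted p = 0.0204) on D7. Both passed the adjusted p and neither reached the 2-fold threshold, so Gfra2 was not called. Without regard to fold, 44.2% of all genes passed the adjusted p on D4 and 37.5% on D7. On D7 the adjusted p rose to 0.154 when libraries were scaled by their totals alone (log2 fold change −0.23), to 0.0725 without control library a and to 0.0902 without D7 library b.

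Gfra3 (ENSRNOG00000020309, chromosome 18, 27491845 to 27520295), the co-receptor gene of artemin, was the member whose D4 and D7 values lay on opposite sides of control. It held 55 and 50 counts in control, 38 and 32 on D4, and 227 and 121 on D7. Its 3 groups did not overlap, and the D7 libraries were the furthest apart of any group of this gene, with FPKM of 5.10 and 2.91. The FPKM means were 1.15 ± 0.0706 (SD, n = 2) in control, 0.658 ± 0.127 on D4 and 4.01 ± 1.55 on D7. For D4 the log2 fold change was −1.09 (SE 0.36, adjusted p = 0.0517), which missed the threshold. On D7 Gfra3 was upregulated (1.51, SE 0.34, adjusted p = 0.0173), and it was 6.07-fold higher on D7 than on D4 (2.60, 95% interval 1.73 to 3.47, adjusted p = 0.0239).

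These calls for Gfra3 lay close to the threshold. The D4 value passed it in DESeq2 (−1.07, adjusted p = 0.0442), in the fit of only the control and D4 libraries (−1.04, adjusted p = 0.0460), in the fit with no low-count filter (adjusted p = 0.0480), and without D7 library a (adjusted p = 0.0389) or b (adjusted p = 0.0273). The D7 call was lost without control library a (adjusted p = 0.0641), control library b (adjusted p = 0.0570) or D7 library a (log2 fold change 1.06, adjusted p = 0.0756). The difference between D7 and D4 was no longer called without D4 library a (adjusted p = 0.185), D4 library b (adjusted p = 0.194) or D7 library a (2.11, adjusted p = 0.0908).

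Ret (ENSRNOG00000014751, chromosome 4, 150202058 to 150244372), the gene of the receptor tyrosine kinase through which the ligands signal, was the only member called downward. It held 804 and 855 counts in control, 124 and 207 on D4, and 85 and 92 on D7. Both control libraries lay above all 4 injured libraries, and the D4 libraries lay above those of D7. Its FPKM fell from 7.28 ± 1.25 (SD, n = 2) to 1.22 ± 0.347 on D4 and 0.820 ± 0.0844 on D7. Ret was 7.28-fold lower on D4 (log2 fold change −2.86, SE 0.23, adjusted p = 0.000373) and 10.9-fold lower on D7 (−3.44, SE 0.24, adjusted p = 0.000445). The further difference from D4 to D7 was −0.58 on the log2 scale and did not pass the test (95% interval −1.16 to 0.00, adjusted p = 0.204). Its rank by FPKM among 30957 genes was 8181 and 7299 in control, 13512 and 12855 on D4, and 13852 and 13877 on D7.

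**Figure D2:**
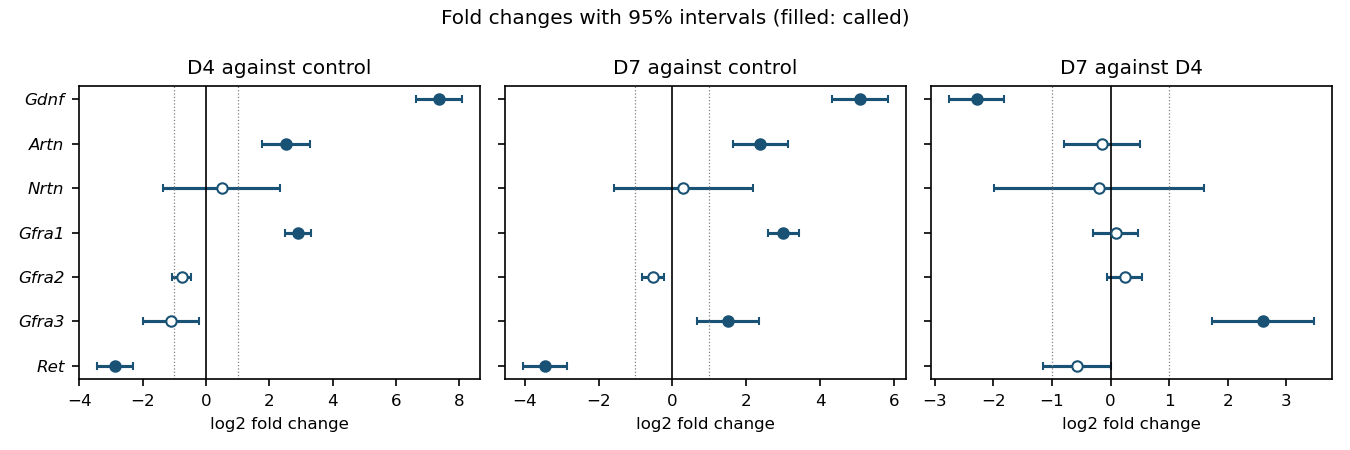
Fitted log2 fold changes of the 7 genes in the control vs D4, control vs D7 and D4 vs D7 comparisons (points) with 95% intervals from edgeR (bars), filled where called. Gdnf, Artn and Gfra1 lie above 0 and Ret below 0 on both days, Nrtn has the widest intervals, and for D7 against D4 the filled points are Gdnf at −2.29 and Gfra3 at 2.60.

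Neuronal cell bodies do not lie in the nerve, and the neuron markers bear on Ret, which motor and sensory neurons are known to express. The 6 neuron markers summed to 36.4 and 40.9 CPM in control, 39.9 and 53.9 CPM on D4 and 32.5 and 35.4 CPM on D7. Most of that sum was Tubb3, a tubulin gene, and without it the other 5 markers summed to 14.6 and 14.7 CPM in control, 3.45 and 8.76 CPM at D4 and 1.88 and 5.10 CPM at D7. All 4 injured libraries thus lay below both control libraries for the sum of these 5 markers, but not for each marker. Syt1 stood at 2.06 and 1.39 CPM in control and at 2.11 CPM in D4 library b. The sum of all 6 markers was not lower on D4 than in control. In the control vs D4 comparison, Tubb3 had a log2 fold change of 0.76 (adjusted p = 0.0140), Snap25 of −1.80 (adjusted p = 0.0683), Prph of −1.34 (adjusted p = 0.0899) and Syt1 of −0.59 (adjusted p = 0.743), and on D7 Snap25 and Prph were downregulated. Prph, a neuronal intermediate filament gene, held 150 and 197 counts in control, 55 and 147 on D4, and 31 and 69 on D7. What part neuronal RNA had in the Ret values was not tested.

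Set in order by FPKM, the control nerves ran Gfra1, Gfra2, Ret, Gfra3, Nrtn, Artn and Gdnf. On D4 the order was Gfra1, Gdnf, Gfra2, Artn, Nrtn, Ret and Gfra3, and on D7 it was Gfra1, Gfra2, Gdnf, Gfra3, Artn, Nrtn and Ret. In control, the ranges of Gfra3 and Nrtn overlapped, as did those of Nrtn and Artn. On D4 the libraries of no neighbouring pair overlapped. On D7 Gfra3 overlapped Artn, and Nrtn overlapped Ret. Ret was thus below only the co-receptors Gfra1 and Gfra2 in control and was last on D7, and Gdnf was last in control and second on D4. CPM with TMM factors per kilobase gave the same orders. Within a library this scale differs from FPKM only by a constant factor, so it is not a separate check.

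The co-receptor and the receptor moved apart within each library. The FPKM ratio of Gfra1 to Ret was 7.68 and 4.79 in control, 378 and 303 on D4, and 579.5 and 484 on D7. That of Gfra1 to Gfra2 was 2.95 and 2.62 in control, 33.5 and 37.5 on D4, and 30.5 and 34.0 on D7. Because both genes of a ratio come from the same library, these values do not depend on how the libraries were scaled against each other.

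**Figure D3:**
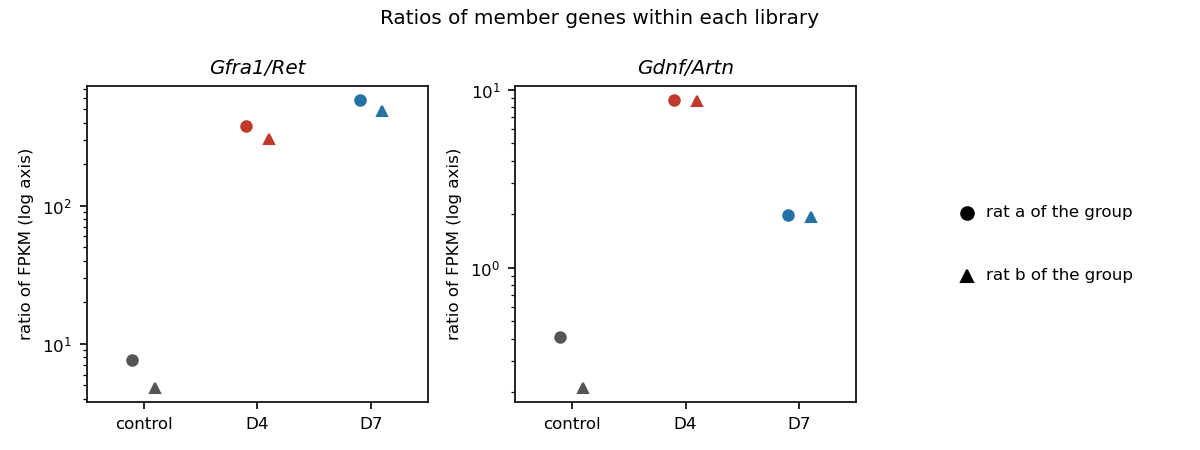
Ratios of deposited FPKM between pairs of members in each library, on log axes, for Gfra1 to Ret and Gdnf to Artn. The 4 injured libraries lie above both control libraries in both ratios, and Gdnf to Artn drops from 8.71 and 8.69 on D4 to 1.98 and 1.94 on D7.

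Among 4 further genes of the family, the divergent ligand gene Gdf15 was the one that was called. Gdf15 held 9 and 0 counts in control, 114 and 84 on D4, and 73 and 43 on D7. It was upregulated on D4 (log2 fold change 3.96, SE 0.86, adjusted p = 0.0128) and on D7 (3.47, SE 0.87, adjusted p = 0.0247). The D4 call was lost without D4 library a (adjusted p = 0.0687), and the D7 call without D4 library a (0.0577), D4 library b (0.0546) or D7 library a (0.0826). Gfral, the gene of the GDF15 receptor, was listed at 0 counts in all 6 libraries. Gfra4, the co-receptor gene of persephin, held between 4 and 17 counts and was not called (log2 fold change 0.34, adjusted p = 0.684 on D4, and 1.0, adjusted p = 0.230 on D7). Pspn, the persephin gene, held between 5 and 12 counts and did not pass the low-count filter.

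The genes around the receptor complex were taken from lists of 49 genes, these 4 included, of which 48 were in the table and 45 were tested. On D4, 9 of the 45 were upregulated and 8 downregulated, which is 17 of 45 beside 21.9% of all genes tested. On D7, 6 rose and 2 fell, beside 18.8% of all genes. The median log2 fold change over the 45 was 0.07 on D4 and 0.04 on D7, beside −0.04 and 0.01 over all genes tested. Under a test against a fold of 2 (glmTreat) the counts called were 11 on D4 and 4 on D7, and without D4 library b the D4 count was 11. Of the 17 calls on D4, 10 held in each fit without 1 library, and of the 8 on D7, 7 held. Those lost on D4 were Cdh2, Dok1, Dok6, Dusp6, Gdf15, Grb7 and Spry4, of which Cdh2, Dok1 and Dusp6 lost the 2-fold threshold alone (log2 fold change −0.94, 0.78 and 0.98 without D4 library b, and 0.97 for Dok1 and 0.99 for Dusp6 without control library a). With no fold threshold, 29 passed on D4, 23 on D7 and 7 between the days, beside 44.2%, 37.5% and 4.67% of all genes.

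Of 25 adaptor and signalling genes downstream of RET that were tested, 4 were upregulated and 4 downregulated on D4. On D7, 1 was called each way, and the median log2 fold change was −0.16 on D4 and 0.00 on D7. Over all genes tested, 11.2% rose and 10.7% fell on D4, and 9.83% rose and 9.02% fell on D7. Shc3, a docking protein of receptor tyrosine kinases, held 4 counts in each control library, with 31 and 44 on D4, and 64 and 86 on D7. It was upregulated on both days (log2 fold change 2.67, adjusted p = 0.00443, and 3.99, adjusted p = 0.00130). Dok2 and Gab2, further docking proteins, rose on D4 by 1.46 (adjusted p = 0.000762) and 1.32 (adjusted p = 0.000257) on the log2 scale. The largest falls were those of Dok4, Dok6 and Grb7, which encode adaptors known to bind RET.

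Dok4 went from 1666 and 1381 counts in control to 247 and 219 on D4 and 355 and 283 on D7 (log2 fold change −3.21, adjusted p = 0.000124 on D4, and −2.46, adjusted p = 0.000353 on D7). Dok6 held 72 and 26 counts in control, 10 and 10 on D4, and 123 and 96 on D7. It was downregulated on D4 (−2.75, adjusted p = 0.00666), was not called on D7 (0.99, adjusted p = 0.115), and was higher on D7 than on D4 (3.74, adjusted p = 0.0231). Grb7 was downregulated on D4 (−2.02, adjusted p = 0.0205). The D4 call of Dok6 was lost without D4 library b (adjusted p = 0.0539), and that of Grb7 without control library b (0.0658) or D4 library b (0.0717).

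Of 8 targets and feedback inhibitors of the pathway, Dusp6 rose and Spry4 fell on both days. Of all genes tested, 21.9% were called on D4 and 18.8% on D7. Dusp6, a phosphatase that acts on ERK, held 839 and 847 counts in control, 2267 and 2992 on D4, and 2599 and 2338 on D7 (log2 fold change 1.11, adjusted p = 0.00133, and 1.33, adjusted p = 0.00103). Spry4, an inhibitor of the same kinase cascade, held 1276 and 1721 counts in control, 1012 and 1080 on D4, and 451 and 700 on D7 (−1.06, adjusted p = 0.0279, and −1.60, adjusted p = 0.00856). The D4 call of Spry4 was lost without control library b (−0.69, adjusted p = 0.106), D4 library a (adjusted p = 0.116) or D4 library b (adjusted p = 0.133). Of the 4 other receptors and sorting receptors tested, Ncam1 (−1.23, adjusted p = 0.00446) and Cdh2 (−1.21, adjusted p = 0.00475) were downregulated on D4. Both encode adhesion molecules, and none of the 4 was called on D7. The share of all genes called downward was 10.7% on D4 and 9.02% on D7.

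The list of upstream regulators held 6 genes tied to Schwann cell state. Jun, Sox2 and Shh were upregulated on both days, and Egr2 was downregulated on D4, beside 21.9% of all genes called on D4 and 18.8% on D7. Jun, a transcription factor of the repair Schwann cell, held 1669 and 1399 counts in control, 10585 and 12494 on D4, and 8163 and 7357 on D7 (log2 fold change 2.40, adjusted p = 0.000114, and 2.13, adjusted p = 0.000217). Sox2, which marks immature Schwann cells, rose by 2.80 (adjusted p = 0.000112) and 2.54 (adjusted p = 0.000174). Egr2, the transcription factor of myelination, held 5703 and 1861 counts in control and 401 and 623 on D4 (−3.36, adjusted p = 0.00258), and 1910 and 1421 on D7, where it was not called (−1.34, adjusted p = 0.0562).

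Shh, which encodes the ligand sonic hedgehog, had its highest values on D4, as Gdnf did. It held 134 and 165 counts in control, 1081 and 1594 on D4, and 474 and 395 on D7. Its log2 fold change was 2.62 (adjusted p = 0.000472) on D4 and 1.31 (adjusted p = 0.00675) on D7, and the D7 level was lower than that of D4 (−1.30, adjusted p = 0.0343). Between D7 and D4, Dok6 and Shh were the 2 genes called of 45, beside 2.18% of all genes. Both calls were lost without D4 library a (adjusted p = 0.198 for Dok6 and 0.168 for Shh), D4 library b (0.191 and 0.212) or D7 library a (0.104 and 0.143), and that of Shh also without D7 library b (0.0831).

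**Figure D4:**
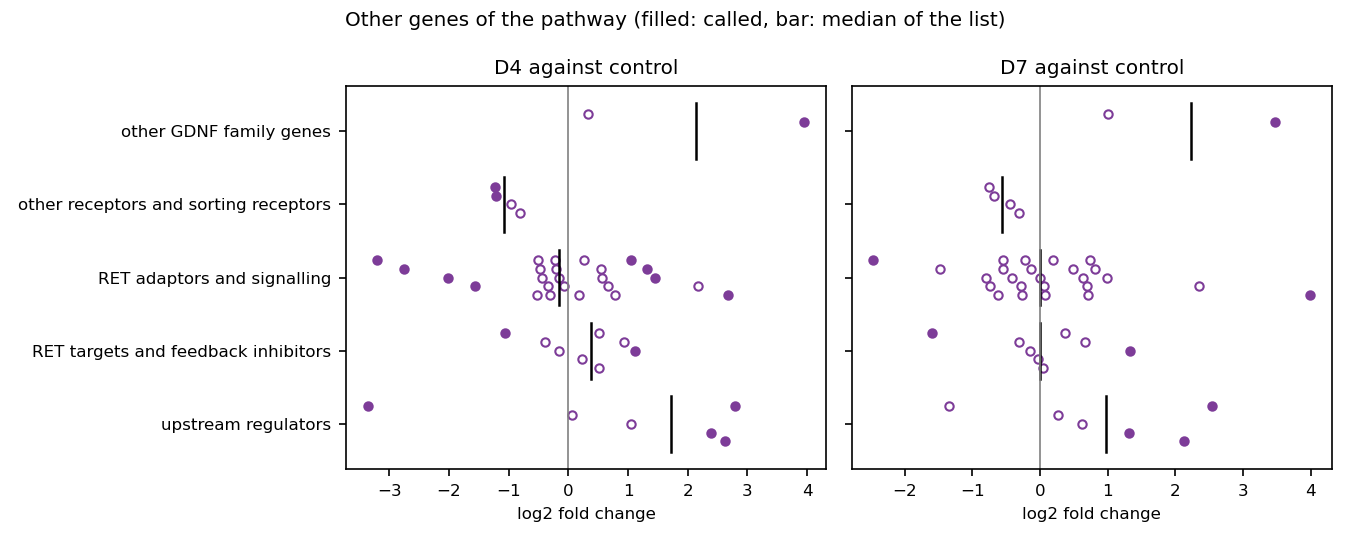
Fitted log2 fold changes of the tested genes of each pathway list for D4 and D7 against control, one point per gene, filled where called, with a line at the list's median. Called genes lie on both sides of 0 in the adaptor list, and Jun, Sox2 and Shh lie above 0 on both days in the list of upstream regulators.

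LncRNA transcripts at the same loci were taken as those overlapping a member gene or lying within 10 kb of it, in the separate lncRNA table, where 14077 of 22721 transcripts passed the filter. There were 4, at Gdnf, Artn, Gfra1 and Ret, and none at Nrtn, Gfra2 or Gfra3. On D4, 3 of the 4 were called, beside 10.1% of all lncRNAs tested, and on D7 also 3, beside 5.79%. Between D7 and D4, 0 of the 4 were called by edgeR, beside 0.249% of all lncRNAs. In that comparison 3 of the 4 had an unadjusted p under 0.05 and DESeq2 called 1, NONRATT015075.2. The strand used in counting is not given in the sources used here, so fragments of an overlapping gene and lncRNA cannot be told apart.

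NONRATT015075.2 (735 nt, chromosome 2, 56892629 to 56893363) lies within the Gdnf gene. It held 0 and 3 counts in control, 338 and 524 on D4, and 66 and 87 on D7, and so followed the order of Gdnf. The ratio of D4 to control was 257 (95% counting interval 87.6 to 1248) and that of D7 to control was 47.7 (16.02 to 233.9). The fitted test gave an adjusted p of 0.00650 on D4 and 0.0225 on D7. The D7 call was lost without either D4 library (adjusted p = 0.0665 without a and 0.0686 without b) or either D7 library (0.0852 without a and 0.0792 without b). It was also lost with no low-count filter (0.0594) and in the fit of only the control and D7 libraries (0.0501). Gdnf held between 1.13 and 1.56 times as many counts as this transcript in the 4 injured libraries.

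NONRATT003950.2 (881 nt, chromosome 1, 279203040 to 279203920) lies 3666 nt outside Gfra1 and does not overlap it. Since Gfra1 is on the minus strand, this is the side on which the gene ends. Whether the fragments counted there come from a transcript separate from Gfra1 was not tested. NONRATT003950.2 held 476 and 425 counts in control, 2188 and 2794 on D4, and 3457 and 2925 on D7. It was upregulated on D4 (log2 fold change 2.30, SE 0.14, adjusted p = 0.00239) and on D7 (2.73, SE 0.15, adjusted p = 0.00201), and both calls held in each alternative, including each fit without 1 library. The D7 and D4 values differed by 0.43 on the log2 scale (adjusted p = 0.322).

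NONRATT021764.2 (410 nt, chromosome 4, 150205611 to 150210988) overlaps Ret and, like Ret, was lower after the crush. It held 30 and 49 counts in control, 2 and 2 on D4, and 0 in both D7 libraries. The ratio of control to D4 was 22.1 (95% counting interval 8.30 to 83.1), and D7 was at least 14.2-fold lower than control when set at 3 counts in each D7 library. The adjusted p was 0.0202 on D4 and 0.0173 on D7. The D4 call was lost without control library a (0.0505), control library b (0.0977), D4 library a (0.127) or D4 library b (0.135). The D7 call was lost in each fit without 1 library, with adjusted p between 0.0510 and 0.0767.

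NONRATT023523.2 (369 nt, chromosome 5, 136761472 to 136762720) overlaps Artn. It held 1 and 5 counts in control, 16 and 24 on D4, and 20 and 18 on D7. Both injured groups lay above control, and the log2 fold change was 2.51 on each day. It was not called by edgeR (adjusted p = 0.0764 on D4 and 0.0930 on D7). DESeq2 called it on D4 (adjusted p = 0.0472) and not on D7 (adjusted p = 0.0584).

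**Figure D5:**
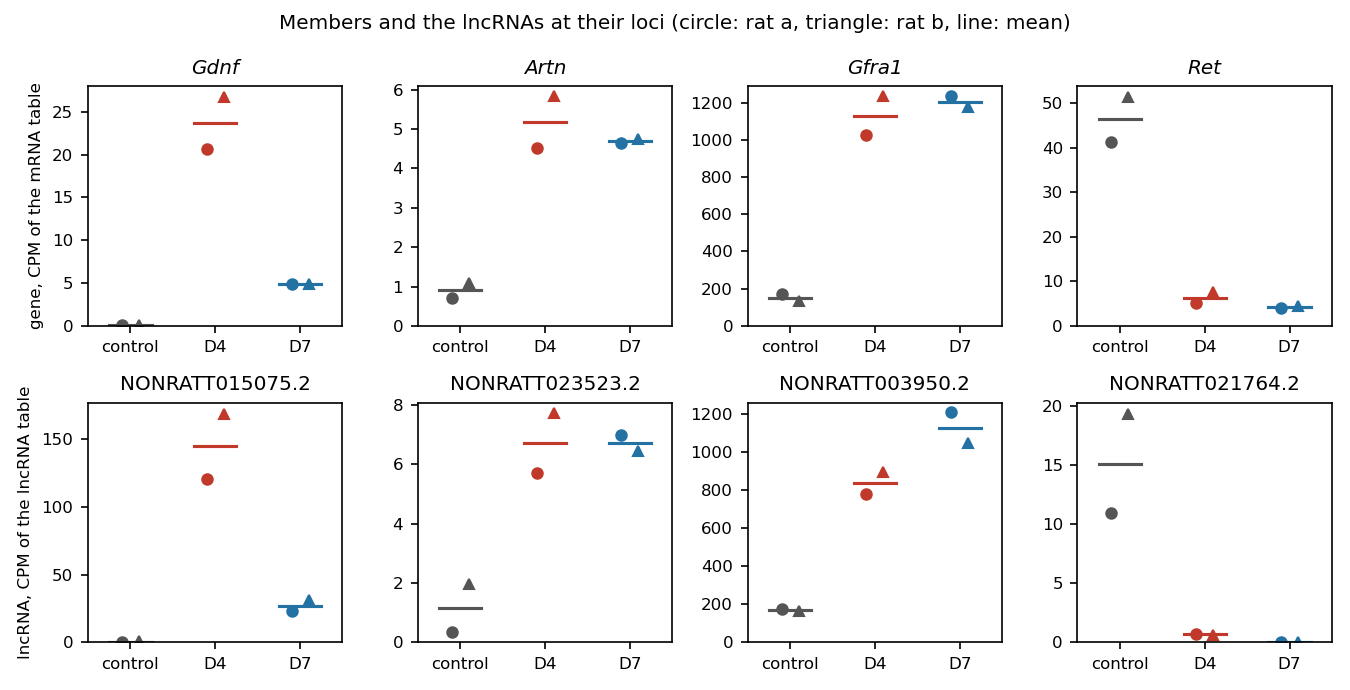
Scaled counts (CPM, linear axes from 0) of Gdnf, Artn, Gfra1 and Ret (upper row) and of the lncRNA at each locus (lower row) in each library, with the group mean as a line. NONRATT015075.2 and Gdnf are highest on D4, NONRATT003950.2 and Gfra1 are high on both days, and NONRATT021764.2 and Ret are highest in control.

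The genes whose pattern over the 6 libraries was most like that of each member were found by the root mean square difference of log2 CPM centred on the control mean, given here in log2 units. This is a description over 6 libraries that share the group means. Nearest to Gdnf were Hmga2 (0.505), Rgs8 (0.617) and Kcng1 (0.634). Hmga2, which encodes a chromatin protein of growing tissue, held 0 counts in both control libraries, with 315 and 321 at D4 and 50 and 79 at D7. Nearest to Gfra1 were Arl11 (0.171), Scimp (0.179) and Casc5 (0.196), and nearest to Artn were Spred3 (0.139), LOC498435 (0.147) and Brca1 (0.154). Nearest to Ret were Serpina11 (0.162), Slc24a2 (0.247) and Arhgef37 (0.323). The first 2 had few counts after injury, where the prior count weighs on the distance. Serpina11 held 18 and 15 counts in control, 0 and 2 on D4, and 0 and 0 on D7. Slc24a2 held 36 and 56 counts in control, 5 and 6 on D4, and 3 and 3 on D7. Arhgef37 held 1895 and 1350 counts in control, 249 and 303 on D4, and 114 and 166 on D7. Gfra3 was nearest to Lair1 (0.261), Cux2 (0.302) and Ttyh1 (0.309), and Ttyh1 held 2223 and 1486 counts in control, 1310 and 1794 on D4, and 6759 and 4748 on D7. For Gfra2 they were Ensa (0.0336), Pura (0.0420) and Itga6 (0.0470), and for Nrtn they were Ndufv3-ps1 (0.196), LOC684822 (0.203) and Ribc1 (0.347). With a prior count of 0.5 in place of 2, 11 of these 21 genes stayed among the nearest 3, and none of the 3 named for Gdnf or for Artn did. Of those named for Ret, Arhgef37 stayed, while Serpina11 and Slc24a2 did not.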

How the data were processed

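Members, gene lists and tests were chosen with earlier results of these data known. Total RNA of sciatic nerve was depleted of ribosomal RNA and sequenced from both ends. The authors mapped reads to the Ensembl rat genome (Rnor 6.0) with HISAT2 2.0.4, assembled and counted with StringTie 1.3.0, and deposited whole-number fragment counts per gene and per lncRNA transcript, not normalized. The deposited FPKM values follow each library's mRNA total in all 6 libraries, with no TMM factor, so they served for levels between genes and not for tests.

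Counts were tested with edgeR 4.0.16 in R 4.3.3 (filterByExpr, TMM factors of 0.863 to 1.08 for mRNAs, quasi-likelihood F test) in 1 fit of the 6 libraries, for mRNAs and lncRNAs separately. SE is the log2 fold change over the square root of F. lncRNA counts summed to 2694777 to 3043817 per library. Counting intervals are exact conditional binomial 95% intervals and cover counting error only. The procedure was also run on simulated counts in which a small set of genes was changed on D4 alone. Many more genes differed in these data, so that run cannot vouch for the calls made here. Named were all members, the other 4 family genes, the 3 largest called rises and falls of each list on either day and the 3 genes nearest each member. Alternatives were DESeq2 1.42.0, 2 other scalings, 2 other filters, fits of 2 groups, the library letter as a block, other thresholds, each library left out and, added after the data were seen, a robust prior. Python 3.11.15 and RefSeq promoters (GRCr8) were also used. Grb2, with 2 identifiers, and Sorl1, not matched in the mRNA table, were left out. Further Schwann cell markers of the list are not reported here.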

Additional observations from a re-analysis of the deposited data

Results flagged for a closer look

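Of the 7 members and the 45 pathway genes tested, 4 were called between D7 and D4, with a fold of at least 2. The share called over all genes tested was 2.18%. The comparison was direct and in the same fit (quasi-likelihood test of edgeR, adjusted by Benjamini-Hochberg over 15195 genes). The response of these 4 thus differed between the days by that rule. Gab2, Dok2 and Dok4 were among the genes that passed the adjusted p without reaching that fold. Gdnf was lower on D7 (log2 fold change −2.29, adjusted p = 0.0117), with 504 and 722 counts on D4 and 103 and 98 on D7. Gfra3 was higher on D7 (2.60, adjusted p = 0.0239), with 38 and 32 counts on D4 and 227 and 121 on D7.

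Dok6 was higher on D7 (3.74, adjusted p = 0.0231) and Shh was lower (−1.30, adjusted p = 0.0343). Each of the 4 lost its call without D4 library a or b, with an adjusted p between 0.112 and 0.212. Without D7 library a the call was also lost for Gfra3 (2.11, adjusted p = 0.0908), Dok6 (adjusted p = 0.104) and Shh (adjusted p = 0.143), and without D7 library b it was 0.0831 for Shh. Adipocyte markers summed to 7.09 CPM in D7 library a and 438 CPM in D7 library b, and muscle markers to 85.5 CPM in D4 library a and 6.83 CPM in D4 library b. The part of these differences in the 4 results was not tested, and with 2 libraries per group no test for an outlying library was possible.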

How the results depend on the processing

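Of the 7 members, those called on D4 numbered 4 or 5 and those on D7 4 or 5 when each library was left out in turn. Between D7 and D4 the count of 2 ranged from 0 to 2 without 1 library (0 without D4 a or D4 b, 1 without D7 a), was 1 with at least 10 counts required in every library, where Gdnf and Nrtn were not tested, and was 1 against a fold of 2 (glmTreat). Pathway genes called were 17 on D4 (11 with glmTreat, 29 with no fold threshold, 11 to 17 without 1 library), 8 on D7 (4 with glmTreat, 23 with no fold threshold, 7 to 10 without 1 library) and 2 between the days (0 with glmTreat, 7 with no fold threshold, 0 to 3 without 1 library). The lncRNAs called, 3 on each day, were 1 with at least 10 counts in every library. They were 2 to 3 on D4 and 1 to 2 on D7 without 1 library. DESeq2 called 4 on D4 and 1 between the days. Signs turned without 1 library for differences that were not called: Artn between the days (−0.31 to 0.057), Nrtn on D4 (−0.14 to 1.75), on D7 (−0.78 to 1.56) and between the days (−1.28 to 0.42), and Gfra1 between the days (−0.037 to 0.23). No other sign of a member's difference turned in any alternative, and the causes of these shifts were not tested.

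The sources used here do not say whether libraries with the same letter, a or b, were handled together. For mRNAs, their deviations correlated at 0.01 between control and D4, 0.19 between control and D7 and −0.13 between D4 and D7. With 2 libraries per group these correlations cannot settle whether the letters mark a pairing. With the letter as a replicate block, 5 members were called on D4, 5 on D7 and 2 between the days, Gfra3 (adjusted p = 0.0452) being the one added on D4. With 2 rats per group, absence of a call carries little information for members with few counts.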
